A study of Mus musculus with 13 samples.

Results

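The pericentral Wnt zonation genes are 10 genes chosen by name: Glul, Oat, Slc1a2, Rhbg, Tbx3, Axin2, Notum, Znrf3, Rnf43 and Lgr5. Each was matched by its symbol to the liver table of the study, and all 10 were found among its 11779 listed genes. The liver libraries came from Balb/c mice, 3 given a mix of 5 GalNAc-conjugated ASOs against the lncRNA LL35 (Liver LL35 ASO) and 3 given a GalNAc-conjugated ASO against firefly luciferase (Liver Luc ASO), all collected on day 5. GalNAc is a sugar that hepatocytes take up through the asialoglycoprotein receptor, so both groups carried an oligonucleotide of the same kind, and no untreated liver is among the samples. The labels give 5 ASOs in this mix, while the study's supplementary list of ASOs for mice holds fewer. The LL35 dose is labelled as 150 mg/kg for each ASO, while the methods of the study give it as the total of the mix. The age and sex of the mice were not given in the sources used here. The libraries of AML12 cells, a line of mouse hepatocytes, were not analysed here.

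In the liver lobule, blood flows from the portal tract to the central vein, and hepatocytes differ in their enzymes along that path. Endothelial cells of the central vein release Wnt ligands and R-spondin, which keep beta-catenin active in the nearest hepatocytes. Beta-catenin with TCF/LEF factors then maintains the pericentral programme, which captures residual ammonium as glutamine, and also induces inhibitors that limit the signal.

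The table holds 1 value for each gene that can be used here, the authors' mean normalized count over the compared liver libraries of both groups. Reads counted on a gene had been divided by a size factor of each library and then averaged. No values for single mice accompany this mean, so it has no error and no n of its own, the depth of the libraries is unknown, and an order of genes cannot be set against the spread between mice. The other values of the table are the study's own comparison of the groups and were not used. A comparison of Liver LL35 ASO with Liver Luc ASO was therefore not made for any member, and every value below describes both groups together. In whole liver, fewer cells of a type and less RNA per cell cannot be told apart. The depletion of LL35 itself could not be checked here, since a mean over both groups cannot show it. Its gene, 9030622O22Rik, also has no row among those analysed. The study itself measured LL35 by RT-qPCR and reports its decrease in the liver on day 5.

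Promoter sequences are shown first because the members are commonly grouped by their dependence on beta-catenin, whose partners TCF/LEF bind DNA at letters such as CTTTGAT. RefSeq windows of 300 bases on GRCm38.p6, from 250 bases before to 50 bases after the annotated start, were held for 5 members (Glul, Slc1a2, Oat, Rnf43 and Axin2), with 2 starts for Rnf43. The letters CTTTGAT on either strand occurred in 1225 of all 32851 windows (3.73%). Among the members they occurred in Slc1a2 alone, 1 time, on the minus strand, with the match beginning 207 bases upstream of the start. The shorter core CTTTG, which is part of the longer match, was found in 53.9% of all windows and again in Slc1a2 alone among the members. The window of Slc1a2 lies at chr2:102706188-102706487 on the plus strand, and the capitals mark the match as it reads on that strand.

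Slc1a2: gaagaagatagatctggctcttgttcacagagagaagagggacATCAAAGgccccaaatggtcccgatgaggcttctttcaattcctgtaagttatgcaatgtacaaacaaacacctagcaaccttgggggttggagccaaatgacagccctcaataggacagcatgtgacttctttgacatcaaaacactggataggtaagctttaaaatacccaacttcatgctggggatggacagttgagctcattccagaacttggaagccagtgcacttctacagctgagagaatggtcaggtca

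The window of Axin2 is shown beside it as the opposite in base composition, at chr11:108920099-108920398 on the plus strand, with each CG dinucleotide in capitals.

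Axin2: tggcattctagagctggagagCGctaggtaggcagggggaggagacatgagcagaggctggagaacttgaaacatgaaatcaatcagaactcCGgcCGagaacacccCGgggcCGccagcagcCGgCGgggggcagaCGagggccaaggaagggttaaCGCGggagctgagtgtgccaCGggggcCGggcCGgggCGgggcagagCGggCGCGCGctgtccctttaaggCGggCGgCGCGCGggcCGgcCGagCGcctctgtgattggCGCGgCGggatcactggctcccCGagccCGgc

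Axin2 had 31 CG dinucleotides and 70.0% G and C, with more CG than 89.4% of all windows. Slc1a2 had 1 CG and 45.7% G and C, with more CG than 5.43% of all windows. Glul and Oat were nearer to Axin2, with 17 and 22 CG, and both windows of Rnf43 lay lower, with 10 and 3. The median over all windows was 7 CG. A match or its absence describes only these letters in these windows, and binding was not measured. Which start of each gene is used in these livers was not measured either, so a window need not be the promoter in use.

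Levels of different genes were compared after division by the length of the gene's exons in GENCODE release M21, since a longer transcript yields more fragments. This length joins the exons of all annotated transcripts of a gene, so it can exceed the length of any single transcript and lower the level per kb. An exonic length was found for 11754 of the listed genes (99.8%). The median over all listed genes was a mean normalized count of 235, and 51.5 per exonic kb. The members spanned a 471-fold range, from 7.49 per kb for Lgr5 to 3524 per kb for Oat. Of the 10, 7 lay above the median of all listed genes by mean normalized count and 6 per kb. Among the enzymes and transporters of nitrogen metabolism, 3 held the first places by mean normalized count and Rhbg the last. The inhibitors and the receptor of Wnt signaling lay below these 3 on that scale.

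**Figure D1:**
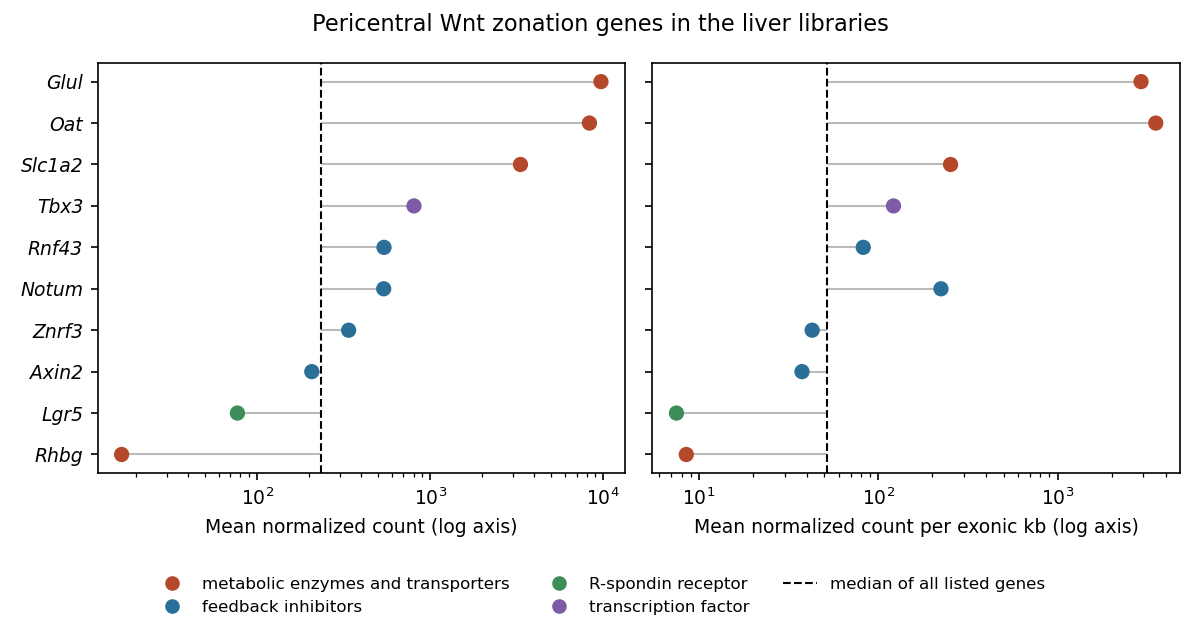
Each point is a member, placed by the authors' mean normalized count over the liver libraries (left) and by the same mean per exonic kb (right), on log axes and coloured by role, with a line to the median of all listed genes (dashed). Glul and Oat stand apart at the high end on both scales, Lgr5 and Rhbg at the low end, and Notum moves from the sixth place to the fourth when length is taken into account.

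Glul encodes glutamine synthetase, which joins ammonium to glutamate in the hepatocytes next to the central vein. Its mean normalized count was 9691, rank 117 of the listed genes, and its level was 2916 per exonic kb, 56.6-fold the median of all listed genes. Oat, ornithine aminotransferase, turns ornithine into glutamate semialdehyde and so feeds glutamate formation in the same cells. Its mean normalized count was 8315, rank 141, and its level was 3524 per kb, 68.4-fold the median. Per kb Oat was therefore 1.21-fold above Glul, whereas by mean normalized count Glul was first, a difference that cannot be set against an error.

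Slc1a2 encodes the glutamate transporter GLT-1, best known from astrocytes and also found on pericentral hepatocytes. Its mean normalized count was 3320, rank 441. Its exons, joined over 12 annotated transcripts, cover 13133 bases, the longest of the members. Its level of 253 per kb was 4.91-fold the median and above 86.9% of listed genes. Glul was 11.5-fold above Slc1a2 per exonic kb and 2.92-fold above it by mean normalized count. Per kb of coding sequence Slc1a2 remained the third member, at 1935 against 8661 for Glul, and lay above 94.1% of genes with a coding length.

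Rhbg encodes an ammonium transporter of the Rh family. Its mean normalized count was 16.4, close to the lowest listed value of 15.6, and only 58 listed genes were lower. Its level was 8.49 per exonic kb. This value is uncertain, because 1190 of its 1937 exonic bases in GENCODE M21, which may differ from the annotation of the authors, are also exons of Gm38392 on the same strand, and STAR does not count a read that falls on exons of more than 1 gene. With the shared bases left out of its length, the level of Rhbg was 22.0 per kb. The share of listed genes below it rose from 9.59% to 26.5%, with the listed genes it was set against kept at full length. Gm38392 is not among the listed genes.

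**Figure D2:**
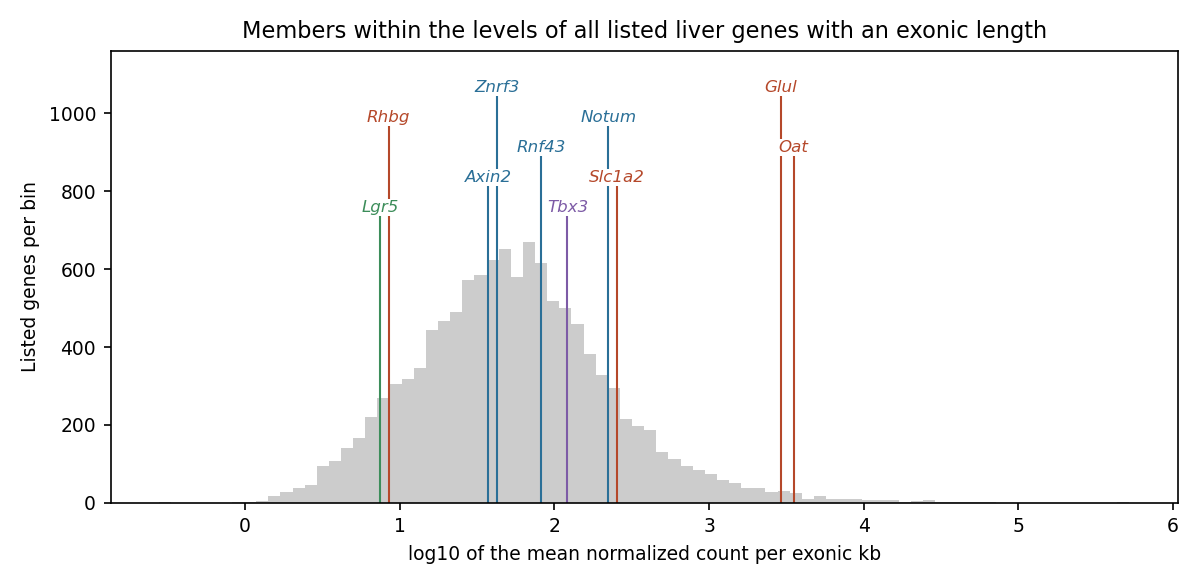
The grey histogram counts listed genes by the log10 of their mean normalized count per exonic kb, and the coloured lines mark the members, coloured by role as in the plot of member levels. Oat and Glul lie in the right tail, above 99.0% and 98.7% of listed genes, Znrf3 and Axin2 sit just left of the centre, and Lgr5 and Rhbg lie in the left part, above 7.95% and 9.59%.

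Tbx3 encodes a T-box repressor that is a target of beta-catenin in liver. Its mean normalized count was 805, and its level was 122 per kb, above 73.7% of listed genes. Per kb it was 2.08-fold below Slc1a2 and 1.47-fold above Rnf43, its neighbour further down among the members.

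The 4 feedback inhibitors act at different steps of the pathway. Notum is a secreted enzyme that removes the lipid from Wnt ligands, Znrf3 and Rnf43 are ubiquitin ligases of the membrane that clear Frizzled receptors, and Axin2 is a scaffold of the complex that degrades beta-catenin. Their mean normalized counts lay within a narrow band, at 540 for Rnf43, 538 for Notum, 337 for Znrf3 and 207 for Axin2. Per exonic kb they were spread more widely, from 37.5 for Axin2 through 42.8 for Znrf3 and 82.4 for Rnf43 to 223 for Notum. Rnf43 and Notum, nearly equal by count, thus differed 2.71-fold per kb, because the exons of Notum cover 2408 bases and those of Rnf43 cover 6558. Rnf43 was 1.93-fold above Znrf3 per kb, and Axin2 was at 0.878 times the level of Znrf3. Antisense genes cover 918 exonic bases of Notum (38.1%), and the strand setting of the counting was not given in the sources used here. With these bases left out of the length, Notum was at 361 per kb and above Slc1a2. Leaving them out applies only if reads were counted without regard to strand. At full length Notum was below Slc1a2, at 223 against 253 per kb. Overlapped bases were 3.80% of the exons of Axin2, 3.49% of Glul, 1.74% of Tbx3 and 1.44% of Slc1a2, and 4 members (Oat, Znrf3, Rnf43 and Lgr5) had none.

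Lgr5 encodes an R-spondin receptor, which holds Znrf3 and Rnf43 away from Frizzled when R-spondin is bound. Its mean normalized count was 76.8, and its level of 7.49 per kb was the lowest of the members on that scale. Per coding kb Rhbg was the lowest, at 12.1 against 28.2 for Lgr5. The share of listed genes lower than Lgr5 was 7.95% per exonic kb and 23.6% by mean normalized count. Per coding kb, 11.2% of genes with a coding length were lower. Its relative Lgr4 was listed at 1068 by mean normalized count and 182 per kb, 13.9-fold and 24.3-fold above Lgr5. Oat, at the other end of the members per kb, was 471-fold above Lgr5, and 108-fold by mean normalized count.

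The members were then set beside lists of other genes of zonation and of the pathway. Genes not listed have no value here, and the lowest listed mean normalized count was 15.6. Medians and counts therefore cover the listed genes only, and may lie higher than those of a full list. All 12 pericentral hepatocyte genes of the first list were listed and lay above the median of all listed genes. Their median was 1599 per kb, from 216 for Ahr, the receptor of aromatic hydrocarbons, to 33192 for Cyp2e1, a cytochrome P450. The median of the members was 102 per kb. Only Glul and Oat reached the median of this list, and Slc1a2 and Notum were the other members above its lowest gene. The 12 periportal genes were of the same order, with a median of 2234 per kb, from 109 for Cdh1, the junction protein E-cadherin, to 15344 for Cps1, which starts the urea cycle. These are levels in whole liver and carry no position within the lobule, so zonation itself was not measured.

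**Figure D3:**
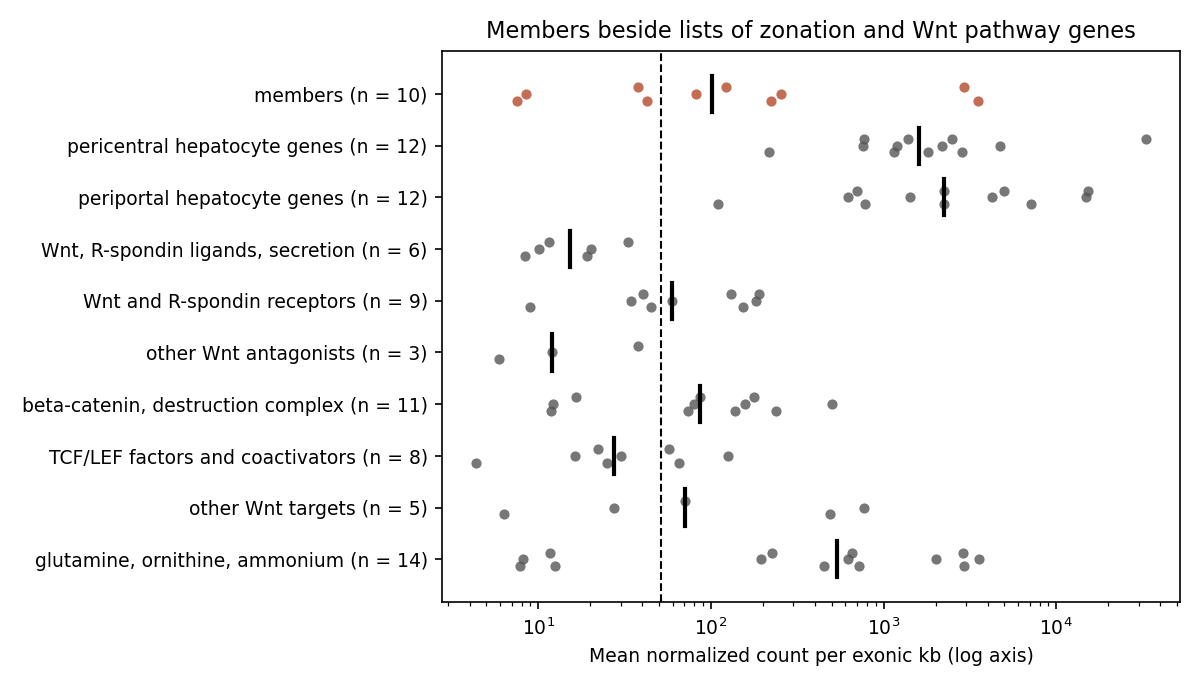
Points are genes placed by the authors' mean normalized count per exonic kb on a log axis, in rows for the members (red) and for the lists of other genes (grey), with n the genes listed, a black bar for the median of each row and a dashed line for the median of all listed genes. The members reach from the range of the hepatocyte enzymes, with medians of 1599 and 2234, down to the range of the Wnt and R-spondin ligands, with a median of 15.3.

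Ligands of the pathway were low. Of 11 genes for Wnt and R-spondin ligands and their secretion, 6 were listed and 0 lay above the median of all listed genes. Wnt2 and Wnt9b, ligands of central vein endothelium, were at 33.2 and 11.5 per kb, and Rspo3, the R-spondin of the same cells, was at 19.2 per kb, 2.56-fold above its receptor Lgr5, whereas by mean normalized count Lgr5 was 1.30-fold above Rspo3. Wls, which carries Wnt ligands to the cell surface, had the highest mean normalized count of the list, 89.0, and was at 10.1 per kb. Wnt5a was the lowest per kb, at 8.33. Notum, which inactivates such ligands, was 6.73-fold above Wnt2 and 19.5-fold above Wnt9b per kb.

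Of 14 receptor genes, 9 were listed, with a median of 59.5 per kb, and 5 of them lay above the median of all listed genes. The coreceptor Lrp6 was highest at 189 per kb and Fzd6 lowest at 8.91 per kb. Fzd4, the highest of the Frizzled genes, was at 131 per kb, above Znrf3 at 42.8 and Rnf43 at 82.4 per kb.

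All 11 genes of beta-catenin and its destruction complex were listed, 8 of them above the median of all listed genes. Ctnnb1, which encodes beta-catenin, was highest at 501 per kb, and Btrc, a ubiquitin ligase subunit, lowest at 11.9 per kb. Dvl2, which relays the signal from Frizzled, had the lowest mean normalized count, 76.7, and was at 12.2 per kb. Axin1, the constitutive relative of Axin2, was at 79.9 per kb, 2.13-fold above Axin2. Of 9 TCF/LEF factors and coactivators, 8 were listed, with a median of 27.6 per kb. Tcf7l2 was at 57.0 per kb, Bcl9l highest at 126 and Pygo1 lowest at 4.34. Among the other antagonists only 3 of 13 were listed, Dkk3 at 37.8, Nkd1 at 12.0 and Frzb at 5.90 per kb, all below Axin2 except Dkk3, which was at nearly the same level. Among 6 other genes often used as Wnt targets 5 were listed, from Tnfrsf19 at 6.28 per kb to Lect2, a secreted protein that the pericentral list also holds, at 766 per kb. Ccnd1, which encodes cyclin D1, had the highest mean normalized count of these, 2305, and was at 490 per kb.

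The metabolic members were set beside enzymes and carriers that share their substrates. Of 20 genes for glutamine, glutamate, ornithine and ammonium handling, 14 were listed and 10 of these lay above the median of all listed genes, with a median of 538 per kb. Slc38a3, a glutamine carrier, and Glud1, glutamate dehydrogenase, were at 2916 and 2883 per kb, nearly the level of Glul on that scale. By mean normalized count they were 1.59-fold and 1.25-fold above Glul. Gls2, the liver glutaminase of periportal cells, was at 622 per kb, 4.69-fold below Glul. Slc38a4 was the highest of the list per kb, at 3579, close to Oat on that scale. By mean normalized count it was at 15250 against 8315 for Oat. Otc, a urea cycle enzyme that also uses ornithine, was at 719 per kb, 4.90-fold below Oat. Slc1a5 and Slc1a4, carriers of neutral amino acids and relatives of Slc1a2, were at 8.12 and 7.86 per kb, 31.1-fold and 32.2-fold below it.

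The labelled tissue was checked by markers of cell types. All 6 hepatocyte markers were listed, from 4262 per kb for Serpina1c to 519843 for albumin (Alb), the highest of all listed genes. Markers of the other cells of the organ were also listed. For endothelial cells 6 of 6 were listed, from Lyve1 at 41.4 to Clec4g at 289 per kb, with Stab2 at 248. For Kupffer cells and macrophages 5 of 5 were listed, with Clec4f highest at 791 per kb. For stellate cells 5 of 5 were listed, among them Dcn at 265, Reln at 76.8, Lrat at 36.8 and Col1a1 at 18.2 per kb. Lyve1, Lrat and Col1a1 thus lay below the median of all listed genes, 51.5 per kb. For cholangiocytes 2 of 5 were listed, Spp1 at 91.9 and Sox9 at 9.94 per kb. For neurons and astrocytes 2 of 4 were listed, Syt1 at 30.0 and Aqp4 at 16.2 per kb, while Gfap and Snap25 are not among the listed genes, and for skeletal muscle 0 of 3 were listed. Slc1a2 is an astrocyte gene as well, and at 253 per kb it was above both of these markers. How much of each member came from which cell type was not tested.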

How the data were processed

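RNA was sequenced by the authors from 6 liver libraries, 3 for Liver LL35 ASO and 3 for Liver Luc ASO, after rRNA depletion with a directional kit. According to the methods and the processing notes of the submitters, the authors aligned reads with STAR 2.5.3a, counted them on Ensembl genes and normalized them with DESeq2 by the RLE method. The genome build and the strand setting are not given in the sources used here. The deposited table holds for each gene the mean normalized count, a signal averaged by the authors over the compared libraries. It also holds the authors' own comparison (log2 fold change, its error, the statistic and p-values), which was not used, so no test was run. The depth of each library and the precision it gives are unknown.

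The mean was divided by the union of the gene's exons in GENCODE release M21, matched by Ensembl identifier. The percentile of a gene is the share of listed genes with a lower value. Promoter windows came from RefSeq (GRCm38.p6), and the motif was searched on both strands. Named were all members, the genes of each list with the highest and lowest mean normalized count, the highest marker of each cell type by that mean, and direct partners of members. Genes named beyond this rule (Ahr, Wnt5a, Fzd4, Btrc, Myc, Glud1, Slc38a4, Otc, Slc1a5, Nkd1, Serpina1c, Clec4g, Lyve1, Dcn, Lrat, Col1a1, Sox9, Aqp4, Gfap, Snap25, Gm38392) were picked once their values had been seen. The members and lists were chosen with earlier results of these data known. The alternatives changed the background genes, the length, the highest gene of each list and the motif. Functions were tested on simulated data with known answers. The tools were Python 3.11.15, numpy 2.4.6, pandas 2.3.3 and matplotlib 3.10.9.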

Additional observations from a re-analysis of the deposited data

How the results depend on the processing

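The number of members above the median of all listed genes stayed between 6 and 7 under the 5 other backgrounds and lengths tried. The count of members with a motif match was 1 with each of the 3 motifs. These are nested, CTTTG within CTTTGAT within CCTTTGAT, so the match of Slc1a2 to the longest fixes its match to the others. The median percentile of the members was 71.5 by mean normalized count among all listed genes, 66.2 when genes whose mean was under 50 were left out, Rhbg among them, 68.8 per exonic kb (the scale of the comparisons between genes), 64.7 per coding kb and 69.0 per kb without overlapped bases. The last 2 were chosen after seeing the data, and the last shortened the members only, with the background genes kept at full length. The planned coding length from RefSeq proteins was not run, since no such table was used. The percentile of the list median by mean normalized count was 97.1 for pericentral genes, 97.8 for periportal genes, 17.3 for other antagonists, 32.8 for TCF/LEF factors, 19.7 for ligands and 68.3 for the destruction complex. Without the highest gene of each list it was 96.7 for pericentral and 97.5 for periportal genes, 28.8 for TCF/LEF factors and 11.1 for other antagonists, whose 3 listed genes include Dkk3 as the highest. Per exonic kb it was 97.8 for pericentral and 98.4 for periportal genes, 14.5 for other antagonists, 18.6 for ligands and 65.2 for the destruction complex. The median of the list of other Wnt targets crossed that of all listed genes, from a percentile of 45.1 by count to 59.2 per exonic kb. The middle gene of this list was Myc on both scales, with exons of 2717 bases. The crossing is thus the shift of Myc alone when length is taken into account. No paired analysis was possible because the table has no values for single mice, and for the same reason no replicate could be left out. The depth is unknown, so no precision can be given for any mean, including the low ones of Rhbg and Lgr5.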
